A study of Mus musculus with 18 samples.

Results

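Glp1r, the gene of the receptor for glucagon-like peptide 1 (GLP-1), and 9 genes named with it were followed in Brunner's glands of mice with and without that receptor. The 10 members were taken by row identifier from a table of 17204 rows, each headed by an Ensembl mouse gene identifier, and the symbols are those given with that list: Glp1r (ENSMUSG00000024027_at), Dnah8 (ENSMUSG00000033826_at), Glo1 (ENSMUSG00000024026_at), Btbd9 (ENSMUSG00000062202_at), Zfand3 (ENSMUSG00000044477_at), Kcnk5 (ENSMUSG00000023243_at), Abcg1 (ENSMUSG00000024030_at), Pde9a (ENSMUSG00000041119_at), Slc37a1 (ENSMUSG00000024036_at) and Cbs (ENSMUSG00000024039_at). They were chosen by their place near Glp1r on chromosome 17, with the differences of these same arrays between knockout and wild-type mice already known. The genotype differences of the members are therefore given as a description, with no p-value, and the number of members past the threshold is printed only beside the share of all rows past it. RefSeq (assembly GRCm38.p6) places 9 of the 10 on chromosome 17, but it places Kcnk5 on chromosome 14, so Kcnk5 is no neighbour of Glp1r in that assembly.

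The 18 arrays each held RNA from laser-captured glands of 1 male CD-1 mouse, in 6 groups of 3. The GLP-1R-/- groups were untreated, collected 6 h after exendin-4 or collected 18 h after it, and the wild-type groups had the same 3 conditions. Exendin-4, a peptide, activates the receptor that GLP-1R-/- mice lack. The labels give neither the design of the deleted allele, the age or litter of the mice, the dose, nor a vehicle-injected group. The deletion and any DNA inherited with it cannot be told apart, and neither can the agonist, the injection and the time of collection within a genotype.

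The GLP-1 receptor is a G protein-coupled receptor that raises cyclic AMP in the cells that carry it, among them pancreatic beta cells and, in mice, Brunner's glands. These glands lie in the submucosa of the duodenum and secrete mucus and bicarbonate that protect the lining from gastric acid. The neighbours of Glp1r were taken for their place on the chromosome, and a shared function among them was not tested. Some laboratory mouse strains are known to carry an inherited duplication around Glo1. DNA copy number was not measured here, and its part in these values was not tested.

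In the RefSeq order the 9 genes of chromosome 17 run Zfand3, Btbd9, Glo1, Dnah8, Glp1r, Abcg1, Slc37a1, Pde9a and Cbs, over 1632 kb that hold 19 protein-coding genes in all. No protein-coding gene lies between Dnah8 and Glp1r, whose bodies are 26.1 kb apart. On the other side Abcg1 is the nearest member, with a gap of 121.2 kb. Zfand3 and Cbs are the outermost, with gaps of 691 kb and 676.1 kb from Glp1r.

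The sequences before the starts of Glp1r and Dnah8 are shown because these adjacent genes had the 2 largest changes among the members in wild-type mice at 6 h. Each is the 250 bases upstream of the RefSeq gene start, 5′ to 3′ on the plus strand of GRCm38.p6, at chr17:30901617-30901866 for Glp1r and chr17:30626686-30626935 for Dnah8. Capitals mark matches on either strand to the GC box GGGCGG.
Glp1r: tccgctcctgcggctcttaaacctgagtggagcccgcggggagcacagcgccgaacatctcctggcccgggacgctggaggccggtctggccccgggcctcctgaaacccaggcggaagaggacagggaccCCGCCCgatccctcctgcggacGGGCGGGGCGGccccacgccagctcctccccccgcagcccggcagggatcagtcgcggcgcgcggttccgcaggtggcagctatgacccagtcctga
Dnah8: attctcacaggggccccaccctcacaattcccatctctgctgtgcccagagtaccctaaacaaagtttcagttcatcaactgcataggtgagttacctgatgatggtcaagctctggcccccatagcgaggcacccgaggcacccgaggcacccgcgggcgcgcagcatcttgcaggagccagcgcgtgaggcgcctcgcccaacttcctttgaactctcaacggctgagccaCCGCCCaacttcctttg
The GC box matched 3 times before Glp1r, where 2 matches share an end base, and 1 time before Dnah8. Of all 32851 promoter windows of the same length, 32.7% hold it. Neither window holds the cyclic AMP response element TGACGTCA, which is in 1.55% of all windows, nor its shorter form TGACG, searched on both strands and found in 17.8%. Of the 10 members 7 had a promoter sequence in the RefSeq table, and among those 7 only the window of Zfand3 held TGACG, with 1 match. A match is a run of letters and not a measured site.

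Values are signals on the log2 scale that the authors made with RMA, a method that brings all arrays to a common distribution and combines the probes of each row. A signal has meaning within its own row, and levels of different genes are not compared. The 12775 rows with at least 3 of the 18 arrays above 4.79, the 30th percentile of all values, were tested with limma, and a row was called at an adjusted p under 0.05. All 10 members passed that filter, 9 of them on every array and Kcnk5 on 7 of 9 knockout and 9 of 9 wild-type arrays. The knockout 6 h array numbered 13 stood apart: it correlated with the others across tested rows between 0.911 and 0.945, where the other pairs lay between 0.951 and 0.993. Markers of Brunner's glands and of other cell types could not be named in this table and were not analysed here. In captured tissue, fewer cells of a type and less RNA per cell cannot be told apart.

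Glp1r was checked first, as the gene deleted in the knockouts. In GLP-1R-/- mice its log2 signal was 4.95, 6.25 and 5.36 untreated, 5.80, 5.69 and 5.83 at 6 h, and 5.65, 5.69 and 5.80 at 18 h. In wild-type mice it was 6.76, 7.69 and 7.24 untreated, 5.48, 5.84 and 6.11 at 6 h, and 5.86, 6.83 and 7.47 at 18 h. The knockout arrays thus stayed low throughout, and the wild-type arrays were all above the knockouts of the same condition when untreated and at 18 h. At 6 h the groups overlapped, and wild-type 18 h replicate 10, at 5.86, was only just above the 18 h knockouts. Whether the probes of this row lie in the deleted part of the gene is not given in the sources used here, so the row does not check the genotype labels by itself.

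Averaged over the 3 conditions, Glp1r was at 5.67 in knockouts and 6.59 in wild-type mice, a difference of -0.92 on the log2 scale (SE 0.201) or 1.89-fold lower. The difference was -1.71 (SE 0.348) between untreated mice, -0.036 (SE 0.348) at 6 h and -1.01 (SE 0.348) at 18 h. At 6 h the 95% interval of the difference ran from -0.77 to 0.70, so it includes a difference of that size in either direction. RMA gives no detection call and compresses dim signals, so the folds of this row may be too small.

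Dnah8 encodes an axonemal dynein heavy chain, a motor protein known from the sperm flagellum. Its log2 signal in knockouts was 7.53, 8.09 and 8.34 untreated, 7.97, 8.0 and 7.87 at 6 h, and 7.76, 7.95 and 7.76 at 18 h. In wild-type mice it was 10.78, 9.31 and 10.46 untreated, 7.92, 7.24 and 8.82 at 6 h, and 9.89, 9.89 and 9.59 at 18 h. Every untreated and 18 h wild-type array was above every knockout array, while of the 6 h wild-type arrays 1 lay within the knockout range, 1 below it and 1 above it.

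Over the 3 conditions Dnah8 was at 7.92 in knockouts and 9.32 in wild-type mice, a difference of -1.40 (SE 0.202) or 2.64-fold lower. Among the members this was the widest genotype difference. It was -2.19 (SE 0.350) between untreated mice and -1.96 (SE 0.350) at 18 h, but -0.045 (SE 0.350) at 6 h, with a 95% interval from -0.79 to 0.70.

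**Figure D1:**
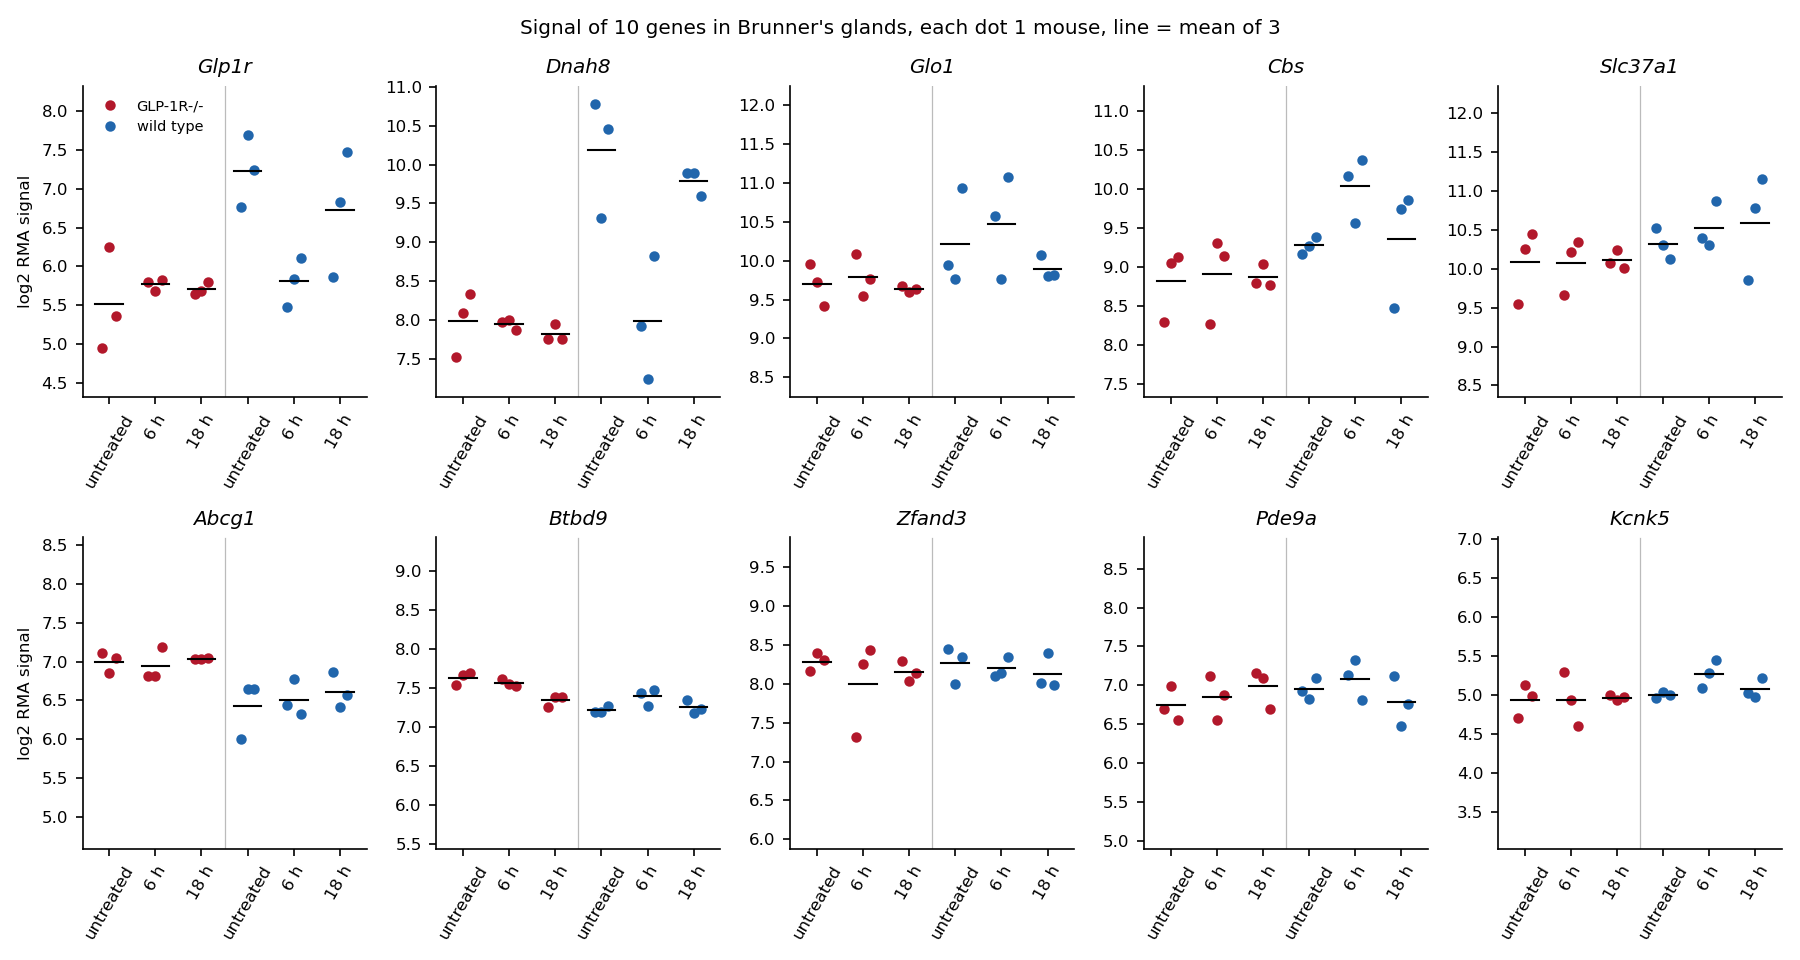
Log2 RMA signal of the 10 genes, with GLP-1R-/- arrays (red) left of wild-type arrays (blue) and untreated, 6 h and 18 h in that order; each dot is 1 mouse, each line the mean of 3, and every panel spans 4 log2 units. The wild-type 6 h arrays of Glp1r lie within the knockout range, those of Dnah8, at 7.92, 7.24 and 8.82, lie within, below and above it, and the other wild-type arrays of Dnah8 sit above them.

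Glo1 encodes glyoxalase 1, which with glutathione detoxifies methylglyoxal. Its log2 signal ran from 9.42 to 10.08 over the 9 knockout arrays with a median of 9.68, and from 9.77 to 11.07 over the 9 wild-type arrays with a median of 9.95. Most wild-type arrays lay between 9.77 and 10.07, and 3 stood higher: untreated replicate 19 at 10.94, and the 6 h replicates 7 and 9 at 10.57 and 11.07. The genotype difference was -0.48 (SE 0.170).

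Btbd9, a BTB-domain protein whose human gene is associated with restless legs syndrome, was at 7.51 in knockouts and 7.29 in wild-type mice, a difference of 0.23 (SE 0.0584). The difference was 0.42 between untreated mice, 0.18 at 6 h and 0.091 at 18 h (SE 0.101 each). Knockout arrays were at 7.54, 7.67 and 7.69 untreated, against 7.19, 7.19 and 7.27 in wild-type mice, and these groups did not overlap. Zfand3, an AN1-type zinc finger protein at the far end of this side, differed by -0.047 (SE 0.127). Without knockout array 13, where Zfand3 was at 7.31 against 8.25 and 8.44 on the other 6 h knockout arrays, its difference was 0.067.

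On the other side of Glp1r, Abcg1, a transporter that exports cholesterol from cells, was higher in knockouts. It ran from 6.81 to 7.19 with a median of 7.03 over the 9 knockout arrays and from 6.00 to 6.86 with a median of 6.57 over the 9 wild-type arrays. The 2 genotypes overlapped only through wild-type 18 h replicate 10 at 6.86, above the 3 lowest knockout arrays at 6.81, 6.81 and 6.85. The difference was 0.47 (SE 0.104) over all arrays, and 0.57, 0.43 and 0.42 in untreated, 6 h and 18 h mice (SE 0.179 each). The untreated difference was 0.35 without wild-type untreated replicate 1, the array at 6.00. Within each condition the 3 knockout arrays were above the 3 wild-type arrays, but the share of all rows with such a separation was not counted.

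Slc37a1 encodes a glucose-6-phosphate and phosphate exchanger, known from human protein, of the endoplasmic reticulum. It was at 10.09 in knockouts and 10.48 in wild-type mice, a difference of -0.39 (SE 0.167). Pde9a, a phosphodiesterase specific for cyclic GMP, differed by -0.082 (SE 0.113), within the spread of the arrays. Kcnk5, a background potassium channel on chromosome 14, was at 4.95 in knockouts and 5.12 in wild-type mice, close to the filter level of 4.79, a difference of -0.17 (SE 0.0909).

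Cbs encodes cystathionine beta-synthase, which condenses homocysteine with serine. Its log2 signal in knockouts was 8.29, 9.05 and 9.13 untreated, 8.27, 9.31 and 9.14 at 6 h, and 8.79, 9.04 and 8.77 at 18 h. In wild-type mice it was 9.17, 9.27 and 9.39 untreated, 10.17, 9.56 and 10.38 at 6 h, and 8.47, 9.75 and 9.86 at 18 h. All 6 h wild-type arrays were above all knockout arrays, and at 18 h 2 wild-type arrays were above all knockouts. Wild-type 18 h replicate 10, at 8.47, lay within the range of all knockout arrays but below every 18 h knockout array. The genotype difference was -0.69 (SE 0.195) over all arrays and -1.13 (SE 0.338) at 6 h, or 2.18-fold lower.

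In 3 of the 6 groups a single array was the lowest for both Cbs and Slc37a1 and the highest for Glo1. These were knockout untreated replicate 4, with Slc37a1 at 9.55, knockout 6 h replicate 13, with Slc37a1 at 9.66, and wild-type 18 h replicate 10, with Slc37a1 at 9.85. Glp1r was also lowest of its group on replicates 4 and 10. The other groups went otherwise. Wild-type 6 h replicate 8 was the lowest of its group for Cbs (9.56), Slc37a1 (10.3) and also Glo1 (9.77). Knockout 18 h replicate 18 was lowest for Cbs and Slc37a1 but not highest for Glo1 (9.63, against 9.68 on replicate 16). In untreated wild-type mice Cbs was lowest on replicate 1 and Slc37a1 on replicate 19. The 18 h difference of Glp1r was -1.44 without replicate 10 but -0.63 without wild-type 18 h replicate 12, and without replicate 13 the all-array difference of Cbs was -0.59.

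Because the members were chosen with the genotype contrasts known, the following counts describe them and test nothing. Over all arrays 5 of the 10 members were past the threshold, Glp1r, Dnah8 and Cbs lower and Btbd9 and Abcg1 higher in knockouts, where 7.03% of the 12775 tested rows were past it. Between untreated mice 2 members were past it (Glp1r and Dnah8, beside 0.618% of rows), at 6 h 0 (beside 6.07%) and at 18 h Dnah8 (beside 1.27%). No member had its 9 knockout arrays all above or all below its 9 wild-type arrays, which 0.658% of rows had. The share of rows separated within a condition, 3 arrays against 3, was not counted, so such separations of members are descriptions. The median difference over the members was -0.28, where that over all tested rows was 0.023. On leaving out each of the 18 arrays in turn, Cbs was no longer past it in 13 cases and Btbd9 in 7, Glp1r between untreated mice in 6 and Dnah8 at 18 h in 2. The count of 5 was 3 without any 1 of wild-type untreated replicate 2, knockout untreated replicate 5, wild-type 18 h replicate 11, knockout 18 h replicate 17 or knockout 18 h replicate 18, and 3 with treatment ignored.

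**Figure D2:**
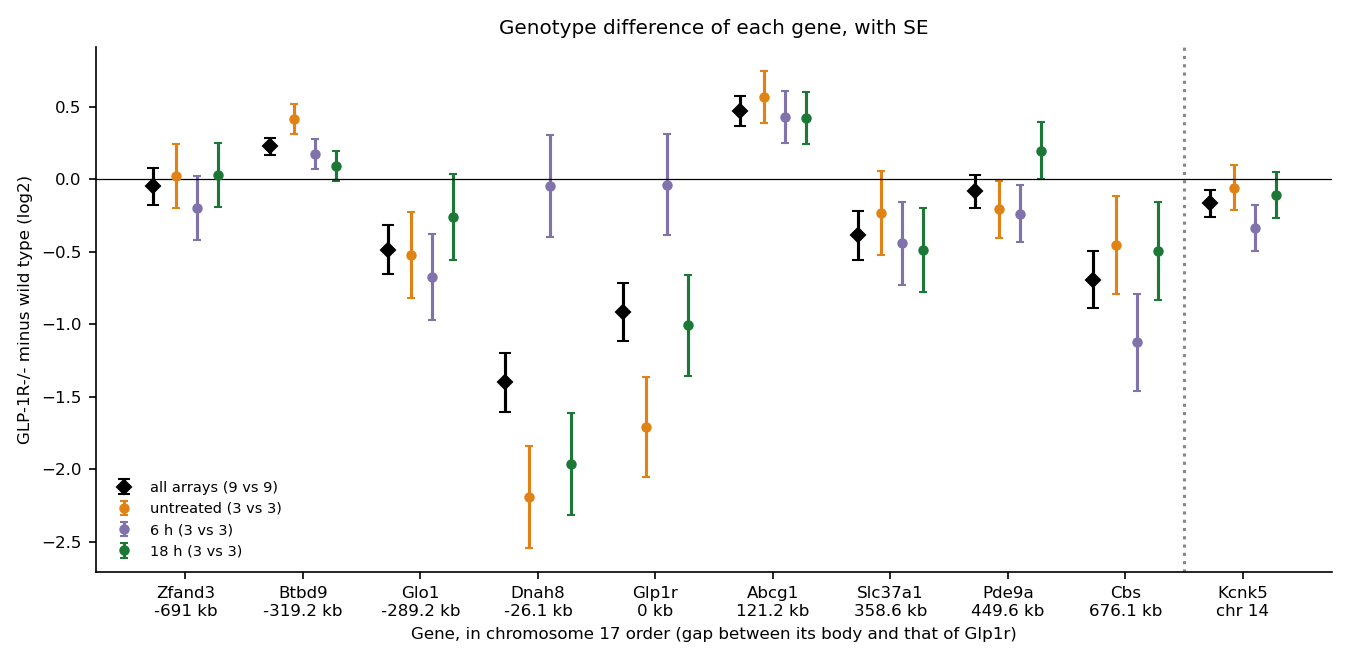
GLP-1R-/- minus wild-type difference on the log2 scale (vertical axis) of the 9 chromosome 17 genes in their RefSeq order, with the gap to the body of Glp1r in kb under each name, and of Kcnk5 on chromosome 14; black diamonds are all arrays (9 against 9), coloured dots the 3 conditions (3 against 3), and bars are SE. Dnah8 and Glp1r reach -2.19 and -1.71 between untreated mice and lie near 0 at 6 h, while Abcg1 lies between 0.42 and 0.57 in every condition (0.35 between untreated mice without wild-type replicate 1).

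The effect of exendin-4 was compared within each genotype. These contrasts share arrays with the genotype differences known when the members were chosen, so their p-values are not independent of that choice. The fall of Dnah8 in wild-type mice at 6 h was known when the members were chosen, so for Dnah8 this change and those that contain it are a description, with no p.

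In wild-type mice Glp1r fell at 6 h, to 5.81 ± 0.315, against 7.23 ± 0.463 in untreated mice (SD, n = 3 each, limma adjusted p = 0.0327). The fall was 1.42 on the log2 scale (SE 0.348), or 2.68-fold lower, and all 3 arrays at 6 h were below all 3 untreated arrays. The call was lost without wild-type 6 h replicate 7 (limma adjusted p = 0.144), 6 h replicate 8 (0.0719), 6 h replicate 9 (0.0634), untreated replicate 2 (0.143) or untreated replicate 19 (0.0738). Listed as those arrays are, the difference became -1.26, -1.44, -1.57, -1.19 and -1.42, and the adjusted p ranged from 0.00157 to 0.144 over 24 alternatives. At 18 h Glp1r was at 6.72 ± 0.811, which was -0.51 relative to the untreated level (SE 0.348, limma adjusted p = 0.772), with 1 low array, replicate 10, and 2 arrays within the untreated range. That difference depended on single arrays: it was -0.083 without 18 h replicate 10, -0.28 without untreated replicate 2 and -0.89 without 18 h replicate 12. The 18 h level was 0.91 above the 6 h level (SE 0.348), which did not pass (limma adjusted p = 0.112). It was 1.34 above without replicate 10 (limma adjusted p = 0.0197) and 0.53 above without replicate 12 (limma adjusted p = 0.411).

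Dnah8 was at 7.99 ± 0.793 in wild-type mice at 6 h and 10.2 ± 0.773 untreated (SD, n = 3 each). The difference was -2.19 (SE 0.350), or 4.56-fold lower, and the 3 arrays at 6 h were below all 3 untreated arrays. At 18 h it was at 9.79 ± 0.174, which was -0.39 relative to the untreated level (SE 0.350, limma adjusted p = 0.834), and 1.80 (SE 0.350) above the 6 h level. Replicates 9 (6 h) and 2 (untreated) lay nearest to the other group, and without them the 6 h difference was -2.60 and -2.63. It was -1.81 without 6 h replicate 8 and -1.89 without untreated replicate 1.

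Cbs was higher in wild-type mice at 6 h than untreated on all 3 arrays, by 0.76 (SE 0.338), but this did not pass (limma adjusted p = 0.3). Its adjusted p ranged from 0.0404, with array weights, to 0.658 over 24 alternatives. The other 7 members differed at 6 h between -0.065 (Zfand3) and 0.28 (Kcnk5), with adjusted p from 0.469 to 0.955 in limma. Among them Btbd9 and Kcnk5 were also higher at 6 h than untreated on all 3 arrays. The share of all rows with such a separation was not counted. At 6 h Glp1r was the only called member among the 9 tested, where 3.39% of all tested rows were called, and Dnah8, whose fall was known, is not counted. The median change was 0.16 over all 10 members, Dnah8 included, and 0.022 over all tested rows. At 18 h 0 members were called, where 0.196% of rows were, and their differences lay between -0.51 and 0.28 (limma adjusted p from 0.772 to 0.971, 0 members at an unadjusted p under 0.05). Between 18 h and 6 h 0 of the 9 members other than Dnah8 were called, where 10.9% of rows were, and 1 of them, Glp1r, had an unadjusted p under 0.05.

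In GLP-1R-/- mice limma called 0 members and 0% of rows in each of the 3 contrasts, and 1038, 657 and 1141 of the 12775 rows had an unadjusted p under 0.05 at 6 h, at 18 h and between the times. The 6 h change of Glp1r was 0.25 (SE 0.348, limma adjusted p = 0.782), and its 18 h change was 0.19 (SE 0.348, limma adjusted p = 0.999). Dnah8 differed by -0.042 at 6 h and -0.16 at 18 h (SE 0.350 each, limma adjusted p = 0.971 and 0.999). The 10 members lay between -0.29 (Zfand3) and 0.25 at 6 h and between -0.29 (Btbd9) and 0.24 (Pde9a) at 18 h. The 6 h value of Zfand3 was 0.057 without array 13. Btbd9 was the 1 member with an unadjusted p under 0.05 at 18 h (limma adjusted p = 0.801): its 3 arrays were at 7.25, 7.39 and 7.38, below 7.54, 7.67 and 7.69 in untreated knockouts. At 6 h 0 members, and between 18 h and 6 h 1 member, had an unadjusted p under 0.05.

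**Figure D3:**
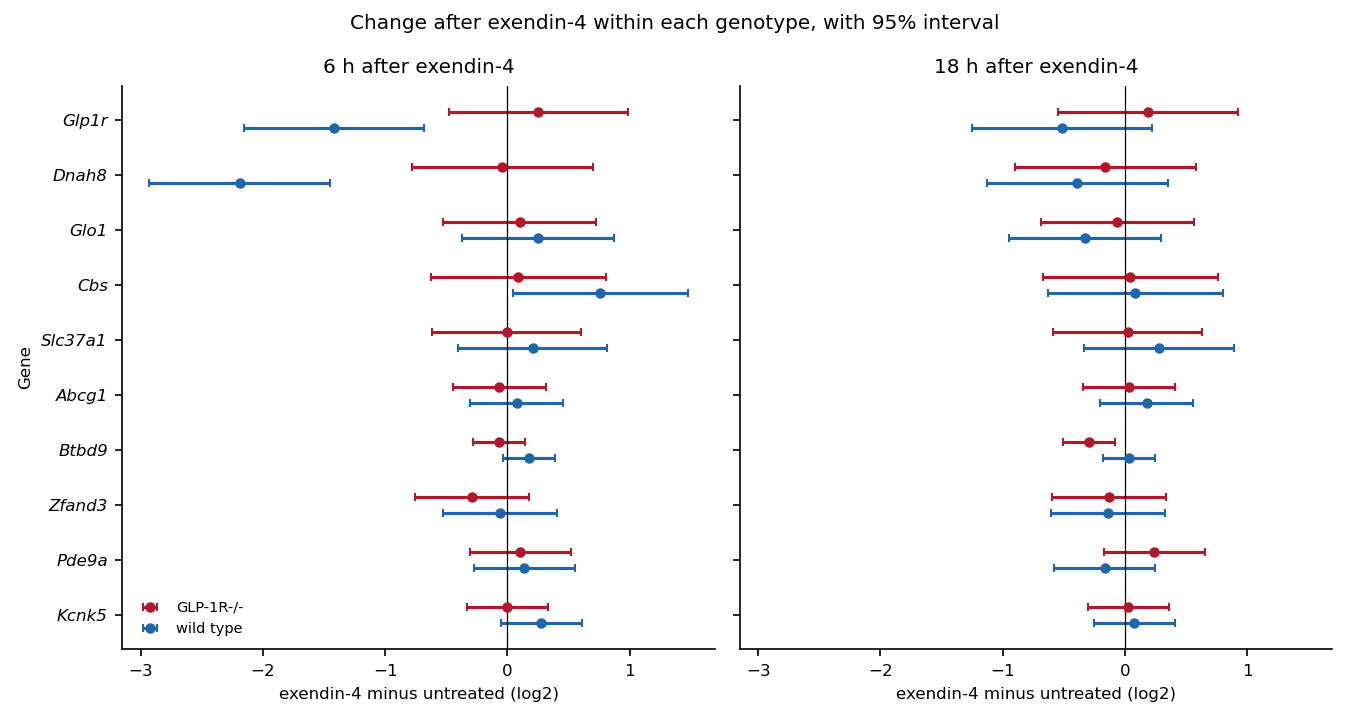
Change after exendin-4 on the log2 scale (horizontal axis) for each of the 10 genes, in GLP-1R-/- mice (red, upper) and wild-type mice (blue, lower), at 6 h (left) and 18 h (right); dots are exendin-4 minus untreated and bars are 95% intervals from limma. At 6 h the wild-type intervals of Glp1r (-2.16 to -0.69) and Dnah8 (-2.93 to -1.45) lie below 0 and that of Cbs (0.046 to 1.47) above it, and at 18 h those of both genes include 0.

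How the change differed between genotypes is given as the knockout change minus the wild-type change. It equals the genotype difference after exendin-4 minus that in untreated mice. Both differences were known when the members were chosen, so these values are a description, with no p. For Glp1r the value was 1.67 at 6 h (SE 0.492, 95% interval 0.63 to 2.71), which was not past the threshold over all rows. Over 24 alternatives it ranged from 1.39 to 2.04, and with array weights it was past the threshold. For Dnah8 it was 2.15 at 6 h (SE 0.496), and 0.23 at 18 h (SE 0.496), where leaving out single arrays gave -0.070 to 0.67. For Cbs it was -0.67 at 6 h (SE 0.478). At 6 h 0 of the 9 members other than Dnah8 were past the threshold, where 0.376% of rows were. At 18 h 0 of 10 were past it, where 0.0235% of rows were. These values do not test whether the fall of Glp1r in wild-type mice differs from the change in knockouts. Untreated knockouts, at 5.52, were already below the wild-type 6 h level of 5.81. The contrast therefore cannot show whether the fall of Glp1r needs the receptor.

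Over the 18 arrays Dnah8 was the member most like Glp1r, with a Pearson r of 0.735 and a Spearman rho of 0.688. Of all tested rows, with Glp1r and Dnah8 themselves counted, 0.125% had a Pearson r with Glp1r at least as high. These coefficients describe arrays that fall into groups, so they mix differences between groups with those within them. The genotype differences and the 6 h fall of Dnah8 were known when the members were chosen, so this likeness is a description. The row most like Glp1r was ENSMUSG00000059714_at (r = 0.821), and the row most like Dnah8 was ENSMUSG00000002265_at (r = 0.867). The reference pairs neither identifier with a symbol. Btbd9 had an r of -0.638 with Glp1r and Abcg1 an r of -0.546. Within a genotype the values differed: over the 9 knockout and the 9 wild-type arrays r was 0.354 and 0.583 for Dnah8, 0.0382 and -0.711 for Btbd9, and -0.449 and -0.0603 for Abcg1.

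**Figure D4:**
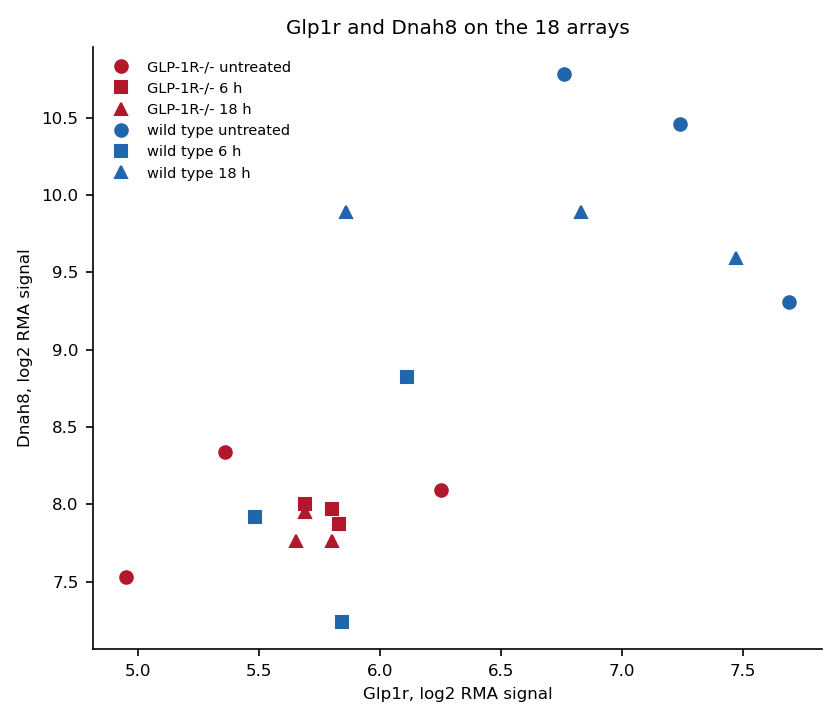
Log2 RMA signal of Dnah8 (vertical axis) against that of Glp1r (horizontal axis) on the 18 arrays, with GLP-1R-/- mice in red and wild-type mice in blue, circles for untreated, squares for 6 h and triangles for 18 h. The wild-type untreated and 18 h arrays have Dnah8 at 9.31 or above, and the 6 h wild-type arrays, at 8.82 or below, lie with or close to the knockouts.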

How the data were processed

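RNA from Brunner's glands, taken by laser capture, was read on 18 Affymetrix arrays. Per the submitters' processing notes, the log2 values the authors deposited come from RMA, whose version they do not state. Neither the type of array, the way probes were grouped nor a genome build is given in the sources used here. Per the labels' protocols, RNA was extracted with TRIzol, cleaned on MinElute columns and labelled by Affymetrix in vitro transcription. Groups came from the sample titles, and 0 columns were left out. The series text says that the arrays came from individual mice.

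From these values, limma 3.58.1 in R 4.3.3 was fitted to all 18 arrays with 1 mean per group, followed by eBayes. P-values were two-sided and adjusted by Benjamini-Hochberg over 12775 rows. The 12 contrasts were knockout against wild type (over all arrays, as the mean of the 3 conditions, and within each), each treated group against untreated, 18 h against 6 h, and the interaction at each time. The steps were tested on simulated data. Precision is limited by the number of arrays.

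The members and all gene lists were chosen with earlier results of these data known. The naming rule took all members and the rows with the highest Pearson r with Glp1r and Dnah8, reduced to the first where rows have no symbol. Of the reference rows 0 carry an Ensembl identifier, so the fixed pathway, marker and chromosome window lists were not analysed here. RefSeq sequences and positions (GRCm38.p6) were matched by symbol for 10 of 10 members. Alternatives were 7 other settings and leaving out each of 18 arrays.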

Additional observations from a re-analysis of the deposited data

How the results depend on the processing

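No sign turned under any of the alternatives for the differences of Glp1r and Dnah8 over all arrays, between untreated mice, at 18 h and in wild-type mice at 6 h. With array weights, which gave array 13 a weight of 0.084, 4 members were called between genotypes at 6 h, 5 at 18 h, 4 between 18 h and 6 h in wild-type mice and 2 in the 6 h interaction, against 0, 1, 1 and 0. Rows called also rose in the same contrasts, to 2293, 1589, 3423 and 284 of 12775, against 775, 162, 1389 and 48. These counts of members include Dnah8 and the genotype contrasts, and they are descriptions. The fit to only the groups compared called 0 members between untreated genotypes, against 2, and 53 of all rows, against 79. With treatment ignored 3 were called over all arrays, against 5. Leaving out an array, members called between genotypes numbered 3 to 6 over all arrays, 1 to 3 untreated, 0 to 2 at 6 h and 0 to 2 at 18 h. In wild-type mice they numbered 1 to 2 at 6 h and 1 to 2 between 18 h and 6 h, and in the 6 h interaction 0 to 1. The wild-type 6 h difference of Glp1r ranged from -1.66 to -1.19 on leaving out an array and was -1.70 with array weights. The cause of these changes was not tested.

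Among all rows, array weights called 2335 between genotypes (898 without weights), 177 untreated (79), 2293 at 6 h (775) and 1589 at 18 h (162). In wild-type mice they called 1243 at 6 h (433), 212 at 18 h (25) and 3423 between times (1389), in knockouts 22 at 18 h and 455 between times (0 each), and 284 and 19 in the interactions (48 and 3). The fit to only the groups compared called 98 between genotypes at 6 h, 347 at 18 h, 4 in wild-type mice at 18 h and 12 in the 6 h interaction. Treatment ignored gave 576. Leaving out an array gave 601 to 1322 over all arrays, 31 to 137 untreated, 417 to 1003 at 6 h, 40 to 428 at 18 h, 174 to 883, 8 to 86 and 808 to 2423 in the wild-type contrasts, 0 to 2 in knockouts, and 17 to 110 and 1 to 6 in the interactions. The counts of 1322, 137, 428, 883, 86 and 2423 all came without knockout 6 h array 13. That array is in none of the wild-type contrasts but enters the shared estimate of the spread. The count of 1003 came without knockout 6 h replicate 14. The groups share no replicate number. No paired analysis was possible because each array has its own number. The stricter filter left Kcnk5 untested.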
